A study of Homo sapiens with 26 samples.

Results

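The genes described here are the AP-1 genes FOS, FOSB, FOSL1, FOSL2, JUN, JUNB, JUND and ATF3. They were chosen by name, and all 8 were found among the 63086 genes of the count files after the identifiers had been matched to GENCODE symbols. Poly(A) RNA had been sequenced in 26 libraries, all from the human colorectal carcinoma cell line HCT116. Of these, 24 came from cells that carried IGF2BP2 and IGF2BP3 knockouts and a Tet-OsTIR1-PURO cassette and that expressed mCherry-tagged IGF2BP1, an RNA-binding protein, as wild type (WT) or as the mutant S181E, Y396E or RQ (R167Q, R168Q, R174Q and R178Q). S181E and Y396E put a glutamate at a position of a disordered linker where phosphorylation has been described, and RQ replaces arginines of the linker that holds S181. The study detected phosphorylated S181 in another human cell line, but phosphorylated Y396 only in vitro. Each population was sampled after 2 h in 500 µM sodium arsenite, an oxidative stressor, and after PBS as control, with 3 libraries per group from dishes plated independently. The parental HCT116 cells, whose labels name neither knockouts nor a transgene, gave 1 control and 1 arsenite library. The transgene was driven by an hPGK promoter, and each IGF2BP1 variant was carried by 1 population of transduced and sorted cells, so the variant and the population cannot be told apart. RNA was taken from clarified lysate, and in such bulk libraries fewer expressing cells and less RNA per cell cannot be told apart.

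AP-1 is a dimeric transcription factor built from basic leucine zipper (bZIP) proteins. JUN proteins can pair with themselves or with FOS proteins, whereas FOS proteins need a partner such as JUN to bind DNA. FOS, FOSB, JUN, JUNB and ATF3 are classical immediate-early genes whose RNAs are short-lived and accumulate within minutes to hours of a growth or stress signal, FOSL1 and FOSL2 encode the FOS-related antigens FRA1 and FRA2 that usually follow later, and JUND is commonly expressed at a steady level. ATF3 belongs to the ATF/CREB branch of the bZIP proteins and pairs with JUN proteins. Arsenite activates the JNK and p38 kinases, which act on JUN, ATF2 and the factors bound at these promoters.

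The members lay on 5 autosomes in hg38. FOS (ENSG00000170345.10) was on chromosome 14 from 75278826 to 75282230, FOSB (ENSG00000125740.15) on chromosome 19 from 45467995 to 45475179, FOSL1 (ENSG00000175592.9) on chromosome 11 from 65892049 to 65900419 and FOSL2 (ENSG00000075426.12) on chromosome 2 from 28392802 to 28417317. JUN (ENSG00000177606.9) was on chromosome 1 from 58780791 to 58784047, JUNB (ENSG00000171223.6) on chromosome 19 from 12791486 to 12793315, JUND (ENSG00000130522.6) on chromosome 19 from 18279694 to 18281622 and ATF3 (ENSG00000162772.18) on chromosome 1 from 212565334 to 212620775. JUN, JUNB and JUND are single-exon genes, and the other 5 have introns. Reads were counted over exons with strand, and no exon of a member overlapped an exon of another gene on either strand.

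RefSeq promoter windows (GRCh38.p14) that ended at the start of the member's MANE Select transcript were at hand for 6 members, and 250 bases upstream of the start were searched on both strands for 6 motifs. The 4 windows below are shown because they belong to the strongest risers of each family and to JUND, the member whose level was not called changed by arsenite. Capitals mark TGACGT, the first 6 bases of the cyclic AMP response element (CRE, TGACGTCA), the CRE itself, TGACATCA, the site known from the JUN promoter, and the TATA-box motif TATAAA. The 6-base motif was added to the search after the sequences had been seen, and every CRE holds it.
FOS: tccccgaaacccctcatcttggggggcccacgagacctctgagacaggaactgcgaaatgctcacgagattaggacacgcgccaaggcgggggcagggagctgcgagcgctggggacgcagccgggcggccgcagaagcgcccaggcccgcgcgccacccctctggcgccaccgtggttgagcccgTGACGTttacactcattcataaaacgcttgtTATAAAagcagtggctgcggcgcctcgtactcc
FOSB: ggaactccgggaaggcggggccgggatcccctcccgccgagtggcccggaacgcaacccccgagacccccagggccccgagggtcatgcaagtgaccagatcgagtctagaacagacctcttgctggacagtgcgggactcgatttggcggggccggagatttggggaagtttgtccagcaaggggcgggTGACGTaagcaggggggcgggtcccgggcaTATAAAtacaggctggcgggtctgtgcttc
JUN: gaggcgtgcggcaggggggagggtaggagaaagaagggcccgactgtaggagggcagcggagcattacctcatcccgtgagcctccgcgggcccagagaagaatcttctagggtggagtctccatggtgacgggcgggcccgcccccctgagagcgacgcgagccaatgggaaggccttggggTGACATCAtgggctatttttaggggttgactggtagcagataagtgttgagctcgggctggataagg
JUND: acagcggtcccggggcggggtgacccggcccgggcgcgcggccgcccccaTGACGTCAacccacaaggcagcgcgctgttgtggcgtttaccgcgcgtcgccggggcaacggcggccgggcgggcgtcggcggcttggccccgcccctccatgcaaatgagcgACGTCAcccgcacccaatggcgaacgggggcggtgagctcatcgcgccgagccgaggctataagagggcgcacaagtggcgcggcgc
These windows are chr14:75278578-75278827 (plus strand), chr19:45467746-45467995 (plus strand), chr1:58784048-58784297 (minus strand) and chr19:18281623-18281872 (minus strand), each written 5′ to 3′ along the gene. FOS and FOSB shared an arrangement, with TGACGT starting at -64 and -60 and TATAAA at -33 and -30 from the start. JUNB also held TATAAA, at -31, and FOSL2 held TGACGT at -66. JUN held TGACATCA from -67 to -60. JUND held the CRE from -200 to -193 and a further TGACGT on the opposite strand at -87 to -82, which reads ACGTCA in the printed direction. Neither TGAGTCA, the TPA response element that AP-1 binds, nor a CArG box, the site of serum response factor, was found in the 6 windows. Bases further upstream were not searched, so such sites may lie there. Of 35116 RefSeq promoters of the same length, 7.1% held TGACGT, 10.7% TATAAA, 1.65% the CRE, 2.37% TGACATCA, 4.2% TGAGTCA and 1.16% a CArG box. A match describes the letters of a window and not a used site.

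Library depth ranged from 22508145 to 50834401 counts. Levels are given as CPM, the usual depth-scaled count, here relative to each library's TMM-scaled total of protein-coding counts. Y396E arsenite replicate 3 stood apart, with counts for 13897 genes against at least 20850 in every other library, and the Y396E arsenite values without it are given after the values of all libraries. The transgene RNA, IGF2BP1, was at 10.6 to 14.7 CPM in the WT control libraries and 12.2 to 20.4 CPM in those of the mutants, at 27.9 to 30 CPM in WT arsenite and 42.3 to 48.0 CPM in the mutants' arsenite libraries, and at 0.347 and 0.645 CPM in the parental pair, and its part in the differences between populations was not tested. Of 8 epithelial markers, EPCAM, KRT8, KRT18 and KRT19 were at 309 CPM or more in every library, CDH1 and CDX2 at 18.7 CPM or more, and KRT20 and VIL1 at or near 0. Their sum was 2829 to 3674 CPM in control and 4370 to 5548 CPM in arsenite libraries, and the part of this shift in the results was not tested. Of 11 markers of blood, endothelial and stromal cells, COL1A1 reached 6.55 to 11.5 CPM and each of the other 10 stayed at or under 1.0 CPM.

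In unstressed cells the AP-1 RNAs were dominated by FOSL1 and JUND. Per kilobase of exon, so that genes of different length can be compared, FOSL1 was at 491 ± 7.36 CPM per kb in WT control cells (SD, n = 3), JUND at 172 ± 3.68 and JUNB at 49.2 ± 3.94. ATF3 followed at 18.1 ± 0.808, JUN at 14.7 ± 2.32, FOSL2 at 13.9 ± 1.59, FOSB at 4.55 ± 1.21 and FOS at 1.81 ± 0.32 CPM per kb. Only JUN and FOSL2 overlapped as neighbours in this order. In WT arsenite cells the order was JUN at 391 ± 9.65, FOS at 386 ± 3.38, FOSB at 307 ± 11.8, JUNB at 302 ± 14.1, FOSL1 at 211 ± 5.31, ATF3 at 198 ± 5.31, JUND at 157 ± 5.51 and FOSL2 at 4.11 ± 0.255 CPM per kb. Here JUN overlapped with FOS and FOSB with JUNB, so that these neighbours do not differ beyond their spread. With the length of the canonical transcript in place of all exons, FOS was first at 530 CPM per kb and FOSB second at 452, ahead of JUN, and ATF3 at 245 passed FOSL1 at 214. Together the 8 genes held 0.149% ± 0.00393 of the scaled counts in WT control cells and 0.582% ± 0.0115 in WT arsenite cells.

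**Figure D1:**
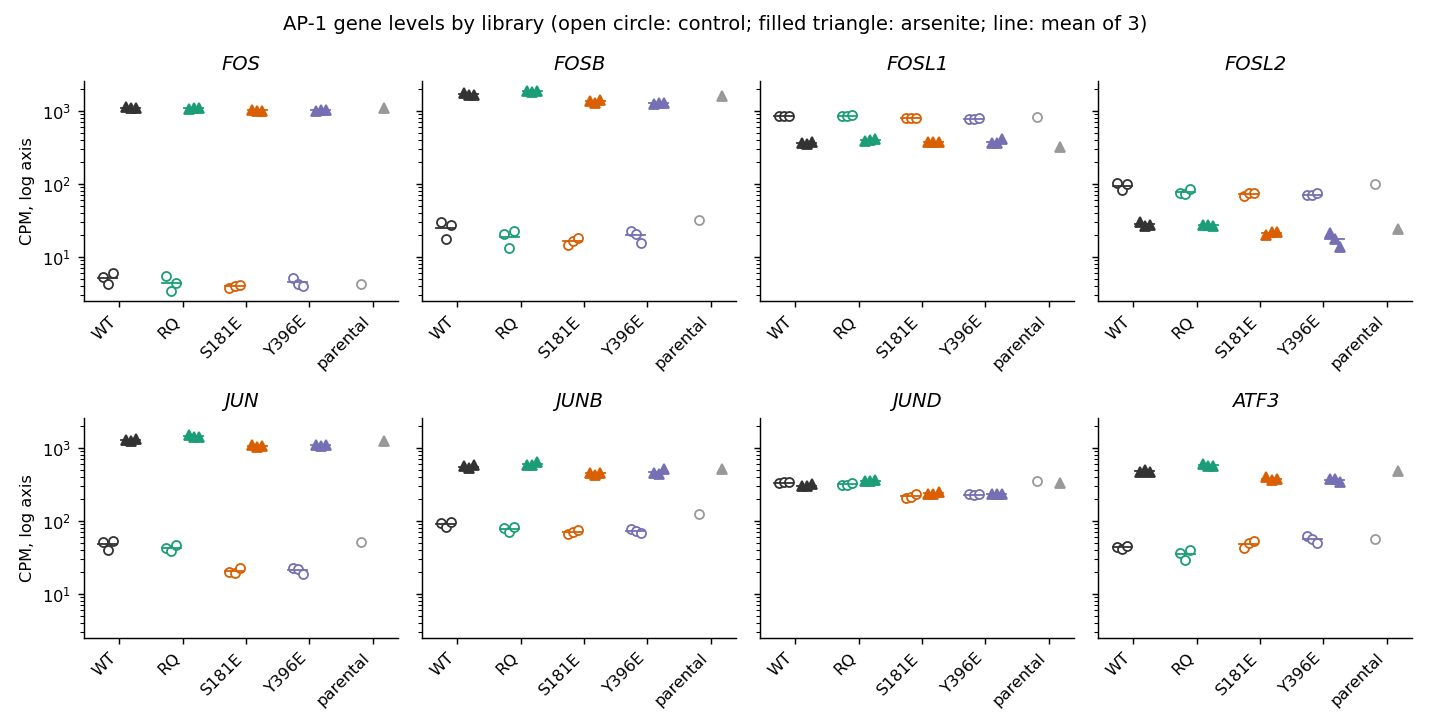
Level of each AP-1 gene in every library, in CPM on a log axis, by population; open circles are control and filled triangles arsenite libraries, and lines are means of 3 (the parental cells have 1 library per treatment). FOS, FOSB, JUN, JUNB and ATF3 lie higher in arsenite in every population, FOSL1 and FOSL2 lower, and JUND close to its control level; the control libraries of JUN and JUND lie lower in S181E and Y396E than in WT.

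The arsenite comparison asked how each gene responded to the stress within a population. FOS, FOSB, JUN, JUNB and ATF3 rose, FOSL1 and FOSL2 fell, and JUND was not called, in WT and in each mutant. Calls needed an adjusted p under 0.05 (edgeR quasi-likelihood test, Benjamini-Hochberg over 9099 genes) together with a fold above 1.2. Thus 7 of 8 members were called in each population, where 72.2% of all genes tested were called in WT, 72.9% in RQ, while S181E had 65.3% and Y396E 65.8%, so a change as such was common. The members' median log2 change was 3.03 in WT and that of all genes -0.01. By size of rise in WT, FOS ranked 1 of 9099 genes, FOSB 3, JUN 5, ATF3 11 and JUNB 22, and in the mutants FOS ranked 1 and FOSB 3, with JUN at 4 or 5, ATF3 at 7 to 13 and JUNB at 16 to 21. FOS passed the level filter of 10 CPM through its 12 arsenite libraries alone, so the direction of its change, though not the size, was fixed by the filter. The other 7 members passed in all 24 libraries.

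FOS, the founding member of its family, was at 5.31, 4.24 and 6.09 CPM in the 3 WT control libraries and at 1123, 1104 and 1119 CPM in arsenite. No library of one treatment came near the other, and the rise was 212-fold, 7.73 ± 0.10 (SE) on the log2 scale with an adjusted p of 6.26e-27. In the mutants the control libraries lay between 3.41 and 5.58 CPM and the arsenite libraries between 996 and 1116 CPM. On the log2 scale RQ rose by 7.92 ± 0.10, S181E by 7.99 ± 0.10 and Y396E by 7.82 ± 0.10. The control values rest on 85 to 173 counts per library.

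FOSB, a paralog of FOS, was at 30.4, 17.6 and 27.7 CPM in WT control and at 1779, 1654 and 1681 CPM in arsenite, a 66.8-fold rise (log2 6.06 ± 0.16, adjusted p = 9.78e-21). WT control replicate 2 was the lowest of the 3 here, as it was for every other member except JUND. The rise was 6.62 ± 0.16 in RQ, 6.37 ± 0.16 in S181E and 6.03 ± 0.16 in Y396E on the log2 scale. Arsenite levels reached 1854 to 1882 CPM in RQ but 1301 to 1405 CPM in S181E and 1267 to 1295 CPM in Y396E.

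FOSL1, the main FOS-family RNA of the unstressed cells, went the other way. It was at 866, 843 and 846 CPM in WT control and at 368, 354 and 372 CPM in arsenite, a 2.33-fold fall (log2 -1.22 ± 0.04, adjusted p = 5.02e-18). The groups did not overlap in any population, and the log2 changes of -1.10 ± 0.04 in RQ, -1.09 ± 0.04 in S181E and -1.04 ± 0.04 in Y396E were close to that of WT. FOSL2 fell further, from 102, 82.2 and 99.3 CPM to 29.9, 26.6 and 27.3 CPM in WT, which was 3.4-fold (log2 -1.76 ± 0.10, adjusted p = 6.48e-14). Its fall was -1.52 ± 0.10 in RQ, -1.78 ± 0.11 in S181E and -2.04 ± 0.11 in Y396E. The Y396E arsenite libraries of FOSL2 were at 21.2, 17.9 and 13.6 CPM, the last being replicate 3, and without it the Y396E change was -1.89. Without that library the Y396E changes of the other members were 7.81 for FOS, 6.03 for FOSB, -1.10 for FOSL1, 5.67 for JUN, 2.61 for JUNB, 0.04 for JUND and 2.75 for ATF3, and the same 7 members were called.

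JUN, the partner that FOS proteins need, was at 51.6, 39.3 and 53.1 CPM in WT control and at 1278, 1242 and 1304 CPM in arsenite. This was a 26.5-fold rise (log2 4.73 ± 0.09, adjusted p = 2.25e-23). The rise was 5.08 ± 0.09 in RQ and larger in S181E and Y396E, at 5.67 ± 0.10 and 5.69 ± 0.10, or 51-fold and 51.6-fold. JUNB, which can replace JUN in the dimer, rose 6.14-fold in WT, from 92.5, 81.9 and 95.7 CPM to 562, 524 and 573 CPM (log2 2.62 ± 0.07, adjusted p = 4.52e-20). Its log2 rise was 2.96 ± 0.07 in RQ, 2.66 ± 0.07 in S181E and 2.69 ± 0.07 in Y396E. Every arsenite library of JUN and JUNB lay above every control library of its population.

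JUND, the most abundant JUN-family RNA of unstressed cells, was at 324, 336 and 337 CPM in WT control and at 299, 295 and 315 CPM in arsenite. The WT libraries did not overlap, but the log2 difference of -0.13 ± 0.04 (adjusted p = 0.00825) was under the fold threshold. In RQ it was 0.16 ± 0.04, in S181E 0.12 ± 0.04 and in Y396E 0.04 ± 0.04, none of them called. The sign of the WT value depends on the scaling. With library totals only, the median change of all genes was 0.16 (WT) and 0.17 (RQ) higher, JUND was at 0.03 in WT, and its RQ value was 0.33 and passed (adjusted p = 1.35e-05).

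ATF3, a stress-inducible repressor and activator of the ATF family, was at 44.2, 41.3 and 45 CPM in WT control and at 471, 490 and 466 CPM in arsenite, a 10.9-fold rise (log2 3.45 ± 0.09, adjusted p = 1.56e-20). RQ libraries reached 608, 565 and 559 CPM from 35.9, 29.4 and 39.5 CPM, a 16.5-fold rise. S181E libraries reached 401, 358 and 373 CPM and Y396E libraries 374, 370 and 339 CPM, rises of 7.77-fold and 6.51-fold. The arsenite levels of RQ lay above and those of S181E and Y396E below those of WT, with no overlap.

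**Figure D2:**
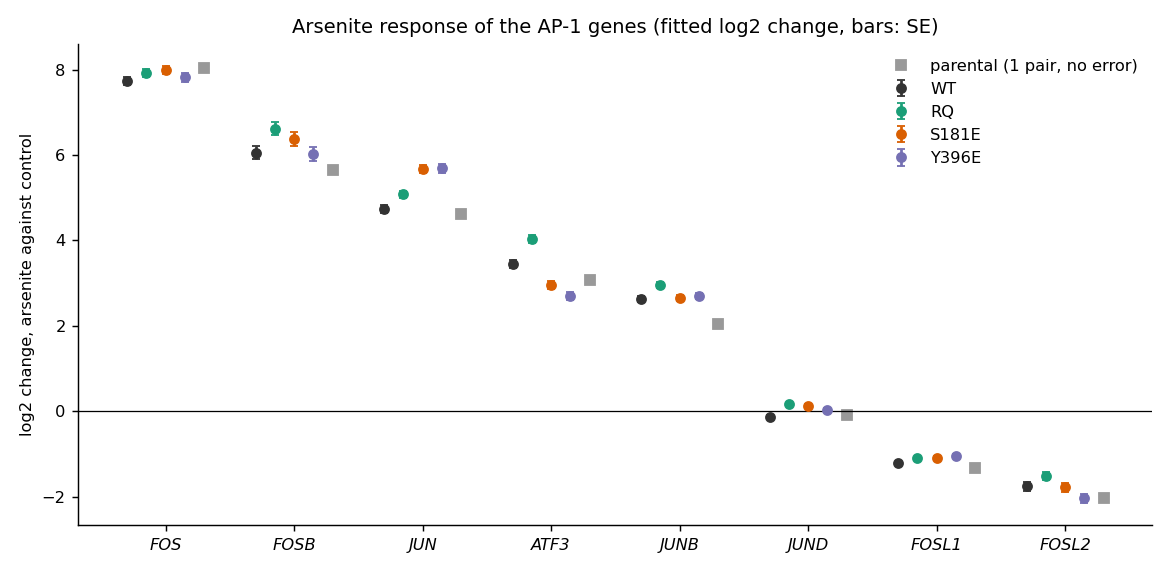
Fitted log2 change of each AP-1 gene between arsenite and control in WT, RQ, S181E and Y396E cells (circles, bars are SE) and in the parental pair (squares, no replicates). The genes range from FOS at 7.73 to 7.99 down to FOSL2 at -1.52 to -2.04 in the 4 populations; JUN lies higher in S181E and Y396E, and ATF3 higher in RQ and lower in S181E and Y396E, than in WT.

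The parental pair, with no replicates and so no test, moved in the same directions for the 7 called members. FOS went from 4.23 to 1113 CPM, a log2 change of 8.04 with an exact 95% counting interval of 7.78 to 8.31, which covers counting error only. FOSB changed by 5.64 (5.55 to 5.74), JUN by 4.61 (4.54 to 4.69), ATF3 by 3.07 (3.0 to 3.15) and JUNB by 2.05 (2.0 to 2.1). FOSL1 changed by -1.34 (-1.37 to -1.31) and FOSL2 by -2.04 (-2.15 to -1.93). JUND was at 352 and 332 CPM, a change of -0.08 (-0.12 to -0.04). JUNB was at 124 CPM in the parental control library, above the 65.7 to 95.7 CPM of the 12 mCherry-IGF2BP1 control libraries, and a difference of genotype and one of this single library cannot be told apart.

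The composition of both families shifted with arsenite. Of the summed CPM per kb of the FOS family, FOSL1 held 96.0% ± 0.545 in WT control cells (SD, n = 3) and 23.2% ± 0.363 in arsenite, while FOS went from 0.353% ± 0.0608 to 42.6% ± 0.529 and FOSB from 0.887% ± 0.224 to 33.8% ± 0.687. FOSL2 held 2.72% ± 0.272 and then 0.452% ± 0.0195. Within the JUN family JUND held 73.0% ± 2.1 in control and 18.5% ± 0.282 in arsenite, JUN 6.23% ± 0.865 and 46% ± 0.408, and JUNB 20.8% ± 1.23 and 35.5% ± 0.547. The library ranges of control and arsenite did not overlap for any of the 7 shares. The family sums rose less than their leading members, from 512 ± 9.67 to 908 ± 18.7 CPM per kb for the FOS family and from 236 ± 6.46 to 851 ± 28.4 for the JUN family.

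The mutants' composition is given as a description. In arsenite FOS held 39.9% ± 0.535 of the FOS family in RQ, 43.1% ± 0.544 in S181E and 43.8% ± 0.607 in Y396E. FOSB held 35.4% ± 0.619, 29.8% ± 0.761 and 28.6% ± 0.66 in the same order. In control cells the JUN share of its family was 5.92% ± 0.306 in RQ, 3.98% ± 0.172 in S181E and 3.93% ± 0.316 in Y396E. In arsenite it was 46.1% ± 1.54, 46.8% ± 0.768 and 46.9% ± 0.944, so the lower mean JUN share of S181E and Y396E was seen in control cells and not in arsenite. The parental pair had 95.6% and then 21.8% FOSL1 and 68.6% and then 20.6% JUND.

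**Figure D3:**
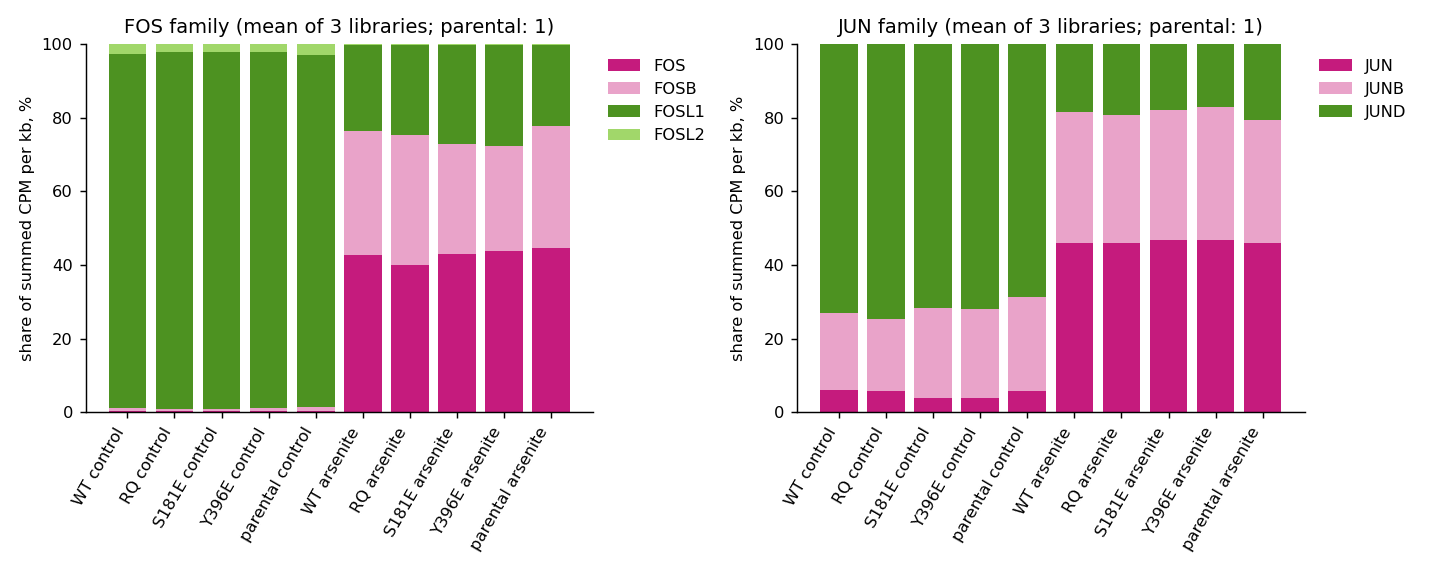
Share of each gene in the summed CPM per kb of exon of its family, in %, as the mean of 3 libraries per group (1 for the parental cells). FOSL1 makes up about 96% of the FOS family in control groups and 21.8% to 27.2% in arsenite groups, where FOS and FOSB take the larger part; JUND gives way to JUN and JUNB in the same groups.

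The comparison of each mutant with WT in control cells asked whether basal AP-1 RNA levels differed between the mutant populations and the WT population. In S181E cells 6 of 8 members were called, all lower (31.1% of all genes called), and in Y396E cells 5, of which 4 were lower and ATF3 higher (28.6% called). JUN differed most. It was at 19.8, 19.1 and 22.5 CPM in S181E and at 22.4, 21.6 and 18.8 CPM in Y396E against 39.3 to 53.1 CPM in WT, 2.34-fold and 2.31-fold lower (log2 -1.23 ± 0.09 and -1.21 ± 0.09, adjusted p = 7.42e-11 and 1.32e-10). JUND was lower as well, at 208, 212 and 233 CPM in S181E and 229, 222 and 229 CPM in Y396E against 324 to 337 CPM in WT. Its log2 differences were -0.61 ± 0.04 and -0.55 ± 0.04, with adjusted p of 7.04e-11 and 4.2e-10. The libraries of both mutants lay below every WT library for JUN, JUNB, JUND, FOSL1 and FOSL2, although FOSL1 was not called. How many of all genes separated in this way was not counted. At an unadjusted p under 0.05 in edgeR, 54.0% of all genes passed in S181E and 51.1% in Y396E.

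The other called differences were smaller. JUNB was lower by -0.36 ± 0.07 in S181E and -0.32 ± 0.07 in Y396E on the log2 scale, and FOSL2 by -0.37 ± 0.10 and -0.40 ± 0.10. FOSB was lower in S181E by -0.64 ± 0.16, from 25.3 ± 6.74 CPM in WT to 16.3 ± 1.9 CPM (SD, n = 3), with overlapping libraries. FOS was lower in S181E by -0.39 ± 0.13 (adjusted p = 0.0141). This FOS call was lost without WT control replicate 3 (adjusted p = 0.11) or S181E control replicate 1 (0.0528). ATF3 went against the rest. It was at 62.0, 55.4 and 49.1 CPM in Y396E against 41.3 to 45 CPM in WT, higher by 0.35 ± 0.09 (adjusted p = 0.003), and at 42.6 to 53.6 CPM in S181E, a difference of 0.16 ± 0.09 that was not called. Without Y396E control replicate 1 the ATF3 difference was 0.26 and just under the fold threshold. With library totals only, which move the median of all genes by 0.16 in S181E and 0.13 in Y396E, 3 members (FOSB, JUN and JUND) were lower and 1 (ATF3, 0.32) higher in S181E, and 3 lower and 1 higher in Y396E. FOSL1, not called, changed sign under that scaling, to 0.09 in S181E and 0.01 in Y396E. JUN stayed between -1.35 and -1.08 over all alternatives in S181E and between -1.33 and -1.08 in Y396E. FOSB in Y396E, at -0.38 ± 0.16, had an adjusted p of 0.0514 and was called in 9 of 34 alternatives.

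In arsenite the same comparison gave 5 called members in S181E (13.7% of all genes called) and 4 in Y396E (21.7% called), all lower than in WT. JUND was lower by -0.36 ± 0.04 in S181E (232, 232 and 245 CPM) and by -0.38 ± 0.04 in Y396E (234, 231 and 232 CPM) against 295 to 315 CPM in WT. ATF3 was lower by -0.33 ± 0.08 and -0.40 ± 0.08, with adjusted p of 0.00339 and 0.000492. FOSL2 was lower by -0.39 ± 0.11 in S181E and -0.67 ± 0.11 in Y396E. JUN was at 1079, 1019 and 1044 CPM in S181E and 1077, 1050 and 1104 CPM in Y396E. These lay below every WT library, by -0.28 ± 0.07 (adjusted p = 0.0066) and -0.24 ± 0.07, the latter under the fold threshold. JUNB was lower in S181E by -0.31 ± 0.07 and in Y396E by -0.25 ± 0.07, the latter under the fold threshold. FOSB was lower in Y396E by -0.41 ± 0.12 (adjusted p = 0.0113). In S181E the FOSB difference of -0.33 ± 0.12 was not called (adjusted p = 0.0549), but it was in 9 of 34 alternatives. FOS was at 1017 to 1035 CPM in S181E and 996 to 1038 CPM in Y396E, below the 1104 to 1123 CPM of WT in every library, yet the differences of -0.12 ± 0.06 and -0.13 ± 0.06 were not called. FOSL1 was not called in either mutant.

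A few of these calls turned on 1 library or 1 tool. Without Y396E arsenite replicate 3, JUNB was called in Y396E as well (log2 -0.32, adjusted p = 0.000238), FOSL2 was lower by -0.52, ATF3 by -0.35, FOSB by -0.41 and JUND by -0.38. JUN at -0.26, FOS at -0.14 and FOSL1 at 0.00 were not called without it. With DESeq2 the FOSB difference of Y396E had an adjusted p of 0.0544. FOSL2 in S181E was lost without WT arsenite replicate 1 (adjusted p = 0.0503), and JUN in S181E with library totals only (-0.24, adjusted p = 0.0567).

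**Figure D4:**
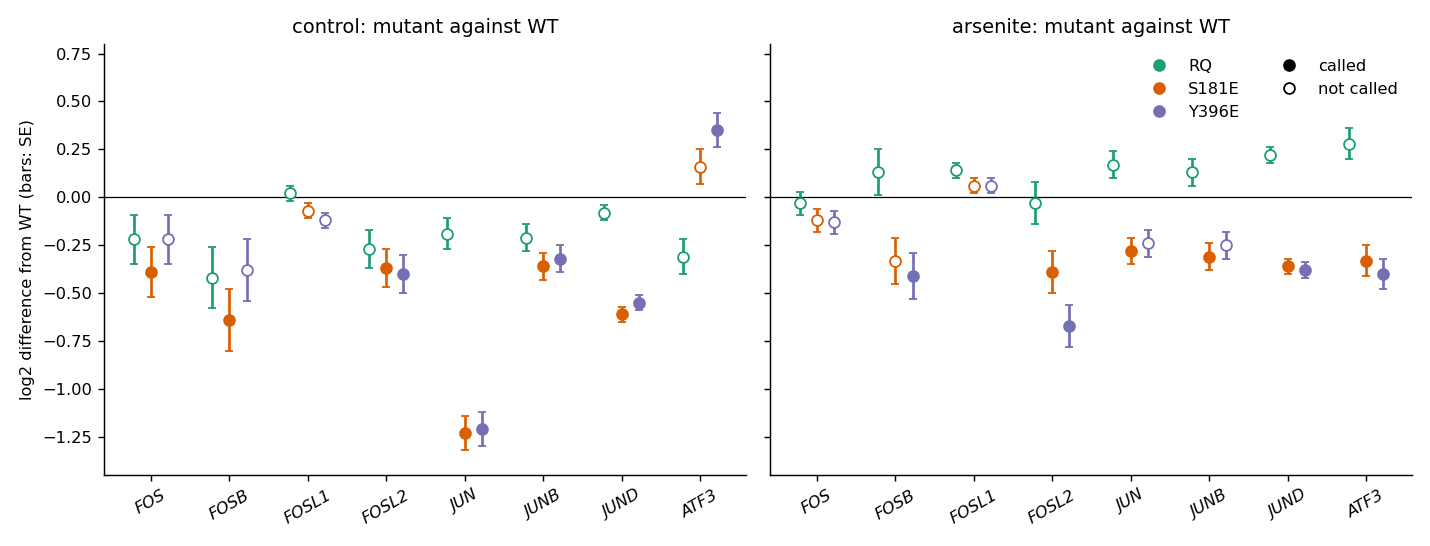
Log2 difference of each mutant from WT (bars are SE) in control (left) and arsenite (right) libraries, with filled points for called and open points for not called differences. JUN lies at -1.23 and -1.21 in S181E and Y396E control cells and at -0.28 and -0.24 in arsenite, and ATF3 lies above 0 in control and below 0 in arsenite for the same mutants; no RQ point is called.

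The difference of the arsenite response between a mutant and WT was tested as an interaction over 4 groups. JUN rose more in S181E than in WT by 0.95 ± 0.12 on the log2 scale (adjusted p = 1.15e-05) and in Y396E by 0.96 ± 0.12 (7.4e-06). ATF3 rose less, by -0.49 ± 0.12 in S181E (adjusted p = 0.00742) and by -0.75 ± 0.12 in Y396E (0.0002). These were the 2 called members of 8 in each mutant, where 16.4% of all genes were called in S181E and 21.5% in Y396E. For JUN the control levels differed between the populations by more than the arsenite levels did. For ATF3 the difference was above 0 in control and below 0 in arsenite. Its S181E control difference of 0.16 (95% interval -0.03 to 0.35) was not called. The response calls of JUN and ATF3 held in all 34 alternatives. In S181E the values were between 0.84 and 1.06 for JUN and -0.61 and -0.41 for ATF3. In Y396E they were between 0.87 and 1.08 for JUN and -0.85 and -0.66 for ATF3. Without Y396E arsenite replicate 3 the Y396E values were 0.95 for JUN and -0.70 for ATF3. The responses of FOS, FOSB, FOSL2 and JUNB were not called different from WT in either mutant, and those of JUND (0.25 ± 0.06 and 0.17 ± 0.06) and FOSL1 (0.13 ± 0.06 and 0.18 ± 0.06) were under the fold threshold. The JUND difference of S181E lay near the fold threshold and passed with DESeq2 (0.27, adjusted p = 0.000494).

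RQ cells were compared with WT in the same way, and no member was called in control or in arsenite with edgeR, where 1.43% and 1.52% of all genes were called. At an unadjusted p under 0.05 there were 5 members in control, where 14.1% of all genes passed that cut, and 4 in arsenite, where 11.2% did. DESeq2 called 1 member in each, ATF3, among 178 and 165 genes. In control cells the RQ libraries of ATF3 lay below those of WT, with a log2 difference of -0.31 (95% interval -0.51 to -0.12, adjusted p = 0.0787). In arsenite they lay above, by 0.28 (0.11 to 0.45, adjusted p = 0.0778). The other differences in control cells were -0.42 for FOSB (-0.75 to -0.09), -0.27 for FOSL2 (-0.48 to -0.06), -0.22 for FOS (-0.49 to 0.05), -0.21 for JUNB, -0.19 for JUN, -0.08 for JUND and 0.02 for FOSL1. In arsenite the other differences were 0.22 for JUND, 0.17 for JUN, 0.14 for FOSL1 and 0.13 each for FOSB and JUNB. FOS and FOSL2 were each at -0.03. JUND had an adjusted p of 0.00537 there, under the fold threshold.

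The labels do not state a pairing, so one was read from the data, and the fit that uses it was added afterwards. Residuals of same-numbered RQ and WT libraries within a treatment correlated at 0.291 to 0.525 in control and 0.147 to 0.15 in arsenite. When only these libraries were fitted, with the replicate number as a block, 3 members were called in control, all lower in RQ, namely FOSB (-0.42, adjusted p = 6.44e-06), FOSL2 (-0.27, 1.41e-05) and ATF3 (-0.32, 2.29e-05), and 1 in arsenite, ATF3 (0.28, 5.52e-29). These fits had 6 libraries and 2 residual degrees of freedom, against a prior of 130 in control and an infinite one in arsenite, so their p-values rest on a spread taken almost wholly from other genes. With the block in the fit of all 24 libraries no member was called in either. Without WT control replicate 2, FOSB, FOSL2, JUN and JUNB were called lower in RQ control cells, between -0.61 and -0.27. Without Y396E arsenite replicate 3, which enters through the shared spread, FOSL2 and ATF3 were called lower there. Fits without 1 library called 74 to 263 of all genes in that comparison, the most without Y396E arsenite replicate 3.

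The arsenite response of RQ exceeded that of WT by 0.59 ± 0.12 for ATF3 and 0.30 ± 0.06 for JUND, each with an adjusted p of 0.0367, where 0.22% of all genes were called. For JUND this lies between changes of -0.13 in WT and 0.16 in RQ, neither called on its own. Both calls of a difference were near the threshold. With library totals only the adjusted p was 0.0898 for ATF3 and 0.362 for JUND, and both calls were lost with DESeq2's size factors in edgeR. Of the 24 fits that leave out 1 library, JUND lost its call in 14 and ATF3 in 13. The differences of the other 6 members were between 0.12 and 0.56, all above 0 and none called. When the RQ and WT libraries were fitted alone with the replicate block, JUNB was called as well (0.33, adjusted p = 0.0223). This made 3 members among 34 genes called.

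Between Y396E and S181E no member was called in control, in arsenite or for the response with edgeR, where 0% of all genes were called in each. At an unadjusted p under 0.05 there was 1 member in each, ATF3 in control and for the response and FOSL2 in arsenite. Of all genes 3.18% passed that cut in control, 15.1% in arsenite and 4.13% for the response. DESeq2 called no member among 1, 9 and 0 genes. The 95% intervals bound what could have been missed. For JUN the interval of Y396E minus S181E was -0.18 to 0.23 in control and -0.12 to 0.2 in arsenite, and for JUND -0.04 to 0.15 and -0.12 to 0.07. For FOS it was -0.11 to 0.45 and -0.14 to 0.14, and for FOSB -0.08 to 0.6 and -0.34 to 0.18. ATF3 differed by 0.19 (0.0 to 0.38) in control, -0.06 (-0.23 to 0.11) in arsenite and -0.25 (-0.51 to 0.0) for the response. FOSL2 in arsenite was lower in Y396E by -0.28 (-0.52 to -0.05) and by -0.13 without Y396E arsenite replicate 3. Since S181E and Y396E were compared with the same WT libraries, part of their likeness against WT comes with the design.

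Across the 24 libraries the log2 CPM of FOS, FOSB, JUN, JUNB and ATF3 had Pearson correlations of 0.968 to 0.998 with each other and of -0.923 to -0.992 with FOSL1 and FOSL2. JUND had correlations between -0.024 and 0.228 with the other 7. These describe libraries that share the 2 treatments, so they mostly restate which genes moved with arsenite. Outside the members, the genes with the most similar pattern were EGR2 and EGR1 for FOS and FOSB, zinc finger factors of the same immediate-early class, followed by GBF1 for FOS and FASN for FOSB. JUN was nearest to IER2, ZSWIM8 and ARC, JUNB to EGR1, MOV10 and FASN, and ATF3 to genes that include GTF2B. FOSL1 was nearest to ARPP19, WSB2 and SSH1, and FOSL2 to SPRED1, ATXN7 and CCDC71L. The correlations ranged from 0.9858 to 0.9986. For JUND the nearest were SPIDR, E2F5 and SAT1, at 0.9604 to 0.9626.

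Other genes of the pathway moved less. Of 12 further bZIP partners 6 passed the level filter, and in WT arsenite cells, where 72.2% of all genes were called, 1 was called higher and 3 lower. The riser was ATF2, a JNK and p38 substrate that pairs with JUN, at 22 ± 1.79 CPM in control and 30.9 ± 2.81 CPM in arsenite (SD, n = 3; log2 0.49 ± 0.09). The fallers were the small MAF genes MAFG (-1.08 ± 0.07), MAFF (-0.76 ± 0.08) and MAFK (-0.66 ± 0.08), which lack a transactivation domain. The list's median was -0.26 against -0.01 for all genes.

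Of 28 kinases and promoter factors upstream of AP-1, 25 were tested, and 4 were called higher and 10 lower in WT arsenite cells (72.2% of all genes called), with a median of -0.22. Highest was MAP3K5, the stress-activated kinase ASK1, from 10.2 ± 1.01 to 19.1 ± 0.179 CPM (log2 0.91 ± 0.09). RPS6KA1, the kinase RSK1, changed by 0.50 ± 0.06 and MAP2K7, a kinase of JNK, by 0.45 ± 0.12. Lowest were SRF, serum response factor, from 281 ± 24.7 to 112 ± 3.31 CPM (-1.32 ± 0.06), and its ternary complex partners ELK3 (-1.23 ± 0.09) and ELK1 (-1.17 ± 0.11). Among these, MAP3K5 was higher in control cells of S181E and Y396E than of WT, by 0.52 ± 0.09 and 0.53 ± 0.09, and ELK3 was lower by -0.44 ± 0.08 and -0.43 ± 0.09.

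Of 25 textbook AP-1 target genes 15 were tested, and in WT arsenite cells 5 were called higher and 9 lower (72.2% of all genes called), with a median of -0.63. DUSP1, a phosphatase that acts on MAP kinases, rose most, from 15.9 ± 1.93 to 221 ± 5.11 CPM (log2 3.79 ± 0.06), followed by EZR (1.16 ± 0.08) and HMOX1, heme oxygenase (0.92 ± 0.11). DUSP1 rose more in S181E than in WT by 0.54 (adjusted p = 0.000261) and in Y396E by 0.63 (4.43e-05). The EGF receptor ligands EREG and AREG fell, with log2 changes of -1.88 ± 0.07 and -1.70 ± 0.08. In control cells 10 of the 15 were called lower and 2 higher in S181E than in WT (31.1% of all genes called), and 9 lower and 2 higher in Y396E (28.6%), among them EREG (-1.09 ± 0.07 and -1.22 ± 0.07) and AREG (-1.71 ± 0.08 and -1.87 ± 0.08). The median of the list was -0.42 in S181E and -0.51 in Y396E, against 0.02 and 0.01 for all genes. In RQ arsenite cells 6 of the 15 were called higher than in WT (1.52% of all genes called, 138 genes, and 70 to 218 when 1 library was left out), with AREG at 0.56 ± 0.08 and EREG at 0.28 ± 0.07. RNA levels do not tell whether AP-1 acted on these genes, and binding of AP-1 was not measured.

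**Figure D5:**
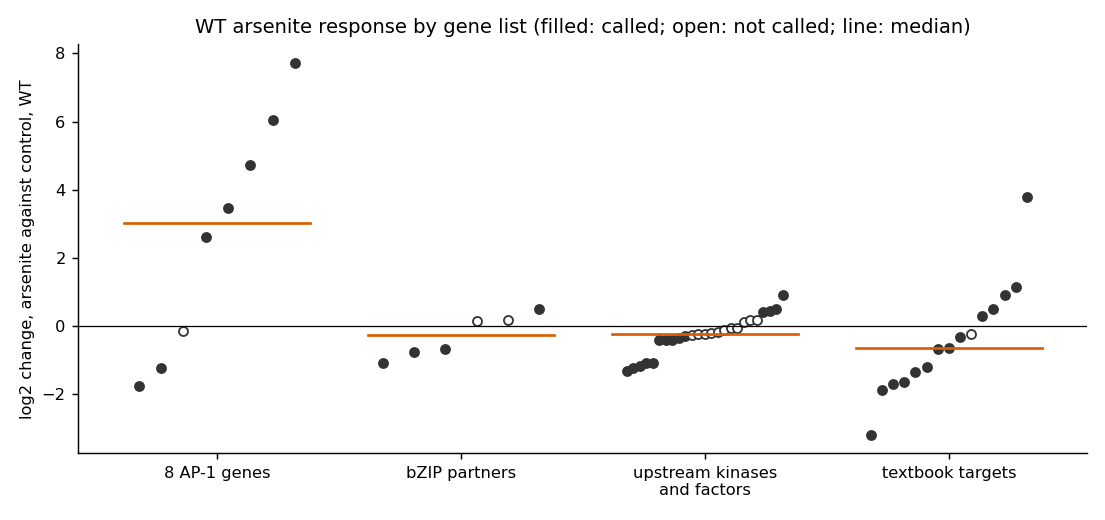
Log2 change between arsenite and control in WT cells for the 8 AP-1 genes and the tested genes of 3 lists, with filled points for called and open points for not called genes and a line at each median. The AP-1 genes spread from -1.76 to 7.73, whereas the medians of the partners, upstream genes and targets lie at -0.26, -0.22 and -0.63.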

How the data were processed

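The 26 HCT116 libraries were grouped by their labels. Reads had been trimmed, aligned to hg38 (STAR 2.7.11b) and assigned to GENCODE release 46 exons (featureCounts of Subread 2.0.6, strand setting 2), and the values deposited by the authors are raw counts per gene. Symbols came from GENCODE release 44 (62541 of 63086 identifiers, 99.1%). Testing covered 9099 protein-coding genes with more than 10 CPM in 12 or more of the 24 mCherry-IGF2BP1 samples. They were fitted in edgeR 4.0.16 (R 4.3.3, limma 3.58.1) with TMM factors of 0.865 to 1.086, 1 mean per group and 16 residual degrees of freedom, and tested by quasi-likelihood with Benjamini-Hochberg adjustment. SE is the log2 change divided by the square root of F, and 95% intervals use the t distribution. The parental pair was placed on the same scale, with exact (Clopper-Pearson) counting intervals. No replicate pair was identical (chi-square per gene 2.67 to 60.1). The fitting code was tested on simulated data.

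The members and lists were chosen with earlier results of these data known. All 8 members are named in the comparisons, with IGF2BP1, up to 3 called genes per direction in WT arsenite from each list, and the 3 tested genes nearest to each member by Pearson r of log2 CPM (prior count 2). Some genes that this rule names are not reported here. Residuals of same-numbered libraries correlated over 0.1 for every pair only between RQ and WT, at 0.291 to 0.525 in control and 0.147 to 0.15 in arsenite, a pairing read from the data since the labels do not state one. Alternatives were DESeq2 1.42.0, other scalings and filters, other samples in the fit, the replicate block and leaving out each library. The fit of the compared groups with the block was added after seeing the data.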

Additional observations from a re-analysis of the deposited data

Results flagged for a closer look

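The arsenite responses of 3 members differed between a mutant and WT by a test of the difference itself (edgeR quasi-likelihood test of the interaction, Benjamini-Hochberg adjusted). This test called 16.4% of all genes in S181E, 21.5% in Y396E and 0.22% in RQ. JUN rose more in S181E by 0.95 on the log2 scale and in Y396E by 0.96. ATF3 rose less in S181E by -0.49 and in Y396E by -0.75, and more in RQ by 0.59. JUND changed by -0.13 in WT and by 0.16 in RQ, neither called, and the difference of 0.30 was called. Of the 24 fits that leave out 1 library, the RQ call was lost in 13 for ATF3 and in 14 for JUND. Both RQ calls were also lost with library totals only and with DESeq2's size factors in edgeR. The transgene RNA was also higher in the mutants than in WT in arsenite, by 0.57 ± 0.09 in S181E, 0.57 ± 0.09 in Y396E and 0.69 ± 0.09 in RQ (log2 ± SE), and its part in these differences was not tested. Single values were not searched for outliers, since groups held 3 libraries.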

How the results depend on the processing

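Over the 8 members and 16 comparisons (128 results), 10 other settings and 24 fits without 1 library gave 4352 values, of which 4259 kept their call. There were 44 losses and 49 gains, in 26 results, and no called value changed sign, although 48 values changed sign where neither was called. The counts of called members that moved by over 1.5 times were those of RQ. Smaller moves included 7 to 8 for the RQ response and 6 to 4 for S181E in control, both with library totals, 5 to 6 for Y396E in control with DESeq2's size factors, no filter or the block and to 4 with library totals, 5 to between 4 and 6 for S181E in arsenite, 4 to 3 for Y396E in arsenite with DESeq2 and 2 to 3 for the S181E difference with DESeq2 or its size factors. For RQ against WT in control (0 called), DESeq2 gave 1, the compared groups with the replicate block 3, and leaving out 1 library 0 to 4. For RQ against WT in arsenite (0 called), DESeq2 gave 1, the compared groups alone 1, the same with the replicate block 1, and leaving out 1 library 0 to 1. For the RQ difference of the response (2 called), DESeq2's size factors and library totals each gave 0. No filter, edgeR's own filter and the compared groups alone each gave 1. The compared groups with the replicate block gave 3, and leaving out 1 library 0 to 2. The cause was not tested.

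With the block in the fit of all 24 libraries, FOSB was added in Y396E control (-0.37, adjusted p = 0.0456) and in S181E arsenite (-0.33, adjusted p = 0.0343), where replicate numbers did not pair every library, and no other member call changed. FOS held 44.2% of the FOS family in WT arsenite with canonical transcript lengths.

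Counts over all genes moved by over 1.5 times as follows. For RQ against WT in control (130), the compared groups gave 71 and with the block 298, and leaving out 1 library 74 (WT control replicate 1) to 263 (Y396E arsenite replicate 3). In arsenite (138) these were 250, 257 and 70 to 218. For the RQ difference (20) library totals gave 12, DESeq2 31, the compared groups with the block 34 and leaving out 1 library 8 to 38. The compared groups alone and with the block gave 1122 and 849 for Y396E in arsenite (1972) and 948 and 901 for its difference (1954). Leaving out 1 library gave 746 to 2149 for the S181E difference (1491) and 1159 to 2442 for that of Y396E, the lower both without WT control replicate 2. Between Y396E and S181E (0), DESeq2 gave 1 in control and 9 in arsenite, and 692 genes were called in arsenite without Y396E arsenite replicate 2. Depth was lowest for FOS in control cells, at 85 to 173 counts per library.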
